A study of Mus musculus with 9 samples.

Results

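The hormone granule and prohormone processing genes are 9 mouse genes chosen by name, with earlier results of these data known. They are Chga, Chgb, Scg2, Scg3, Scg5, Pcsk1, Pcsk2, Cpe and Pam. They were followed in RNA labelled as pancreas from Glis3zf/zf mutant and wild-type (WT) C57BL/6 mice. The mutants are homozygous for the zf allele of Glis3, which encodes a transcription factor with zinc fingers. At embryonic day 15.5 (E15.5) 4 mutant and 3 WT samples were each measured on a 1-colour Affymetrix array, from 100 ng of RNA. For postnatal day 3 (PND3) there was 1 pool of 2 mutant pups and 1 pool of 2 WT pups, and both were hybridised to each of 2 Agilent arrays with the dyes exchanged, from 500 ng of RNA. The PND3 arrays are thus a technical pair, and the marker signals of these pools go against the label pancreas, as given with their values. The labels do not say how many embryos gave an E15.5 sample. Of the 9 genes, 6 were read at E15.5 through 1 named probe set each, out of 45037 probe sets in the table. At PND3 the 9 genes had 15 probes out of 41174, found by the gene name in the scanner files.

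Endocrine cells store peptide hormones in dense-core granules. Granins (Chga, Chgb, Scg2 and Scg3) are acidic proteins that condense with the hormones as the granule forms. The convertases Pcsk1 and Pcsk2 cut prohormones behind basic residues, the exopeptidase Cpe trims those residues off, and Pam amidates the exposed end of many peptides. Scg5, also called 7B2, escorts the inactive precursor of Pcsk2 to the granule. In the pancreas islet cells make these proteins, and neurons and the adrenal medulla use the same set. Which cells gave the signals read here was not tested. Around E15.5 endocrine cells of the mouse pancreas are still forming from progenitors.

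Promoters of Chga, Chgb, Scg2 and Pcsk1 are shown, all of which hold the 6-base core marked below. Granin promoters are known for a cyclic AMP response element (CRE) close to the start site. Pcsk2, also compared at E15.5, and the granin Scg3 are not shown, and their windows lack that core. The sequences come from RefSeq (GRCm38.p6), which gave a window of 250 bases before to 50 bases after the start for 8 of the 9 genes. Each line gives the 160 bases before the start, 5′ to 3′, and capitals mark the 6-base core TGACGT on either strand, extended to TGACGTCA where both strands carry it.
Chga: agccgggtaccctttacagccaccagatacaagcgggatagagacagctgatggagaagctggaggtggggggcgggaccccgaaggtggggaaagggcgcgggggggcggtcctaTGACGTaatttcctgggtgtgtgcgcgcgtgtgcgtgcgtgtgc
Chgb: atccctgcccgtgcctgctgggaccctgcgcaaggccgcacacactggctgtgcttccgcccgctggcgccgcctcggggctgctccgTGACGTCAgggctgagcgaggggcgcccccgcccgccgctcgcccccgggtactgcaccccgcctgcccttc
Scg2: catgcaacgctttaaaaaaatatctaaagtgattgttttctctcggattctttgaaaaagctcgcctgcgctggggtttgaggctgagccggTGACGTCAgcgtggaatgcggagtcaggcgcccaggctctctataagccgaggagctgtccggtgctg
Pcsk1: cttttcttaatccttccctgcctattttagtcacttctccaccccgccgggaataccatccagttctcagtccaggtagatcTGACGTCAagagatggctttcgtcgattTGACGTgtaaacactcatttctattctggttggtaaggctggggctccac

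These stretches lie at chr12:102554781-102554940 on the plus strand for Chga, chr2:132781482-132781641 on the plus strand for Chgb, chr1:79440027-79440186 on the minus strand for Scg2 and chr13:75089697-75089856 on the plus strand for Pcsk1. Searched on both strands over the whole window, TGACGT was present for 5 of the 8 genes (these 4 and Scg5), against 7.51% of 32851 promoter windows. The palindrome TGACGTCA, which contains TGACGT, was present for 3 of the 8 (Chgb, Scg2 and Pcsk1), against 1.79% of windows. TGGGGGGT, the core letters of the Glis binding site, was in 0 of the 8 windows and in 1.53% of all. TATAAA was present only for Chga among the 8, against 13.6% of all windows. The members were counted by gene and the background by window, and the CRE was searched because granin promoters are known for it. A match is a run of letters and does not show that a factor binds there. A relation between these motifs and the E15.5 levels was not tested.

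At E15.5 the 3 granins and Pcsk2 stood lower on each of the 4 mutant arrays than on any WT array, between 2.29-fold and 7.25-fold on average, whereas Pcsk1 and Cpe differed less and overlapped. Values were deposited as intensities, compared as log2(intensity + 16) after quantile normalization between arrays, and tested with limma across all probe sets with Benjamini-Hochberg adjustment. Folds refer to this scale and are too small for dim probe sets. As deposited, the median intensity was 399 to 468 on mutant arrays and 499 to 567 on WT arrays. Gaps between genotypes in deposited intensities therefore include this offset, which normalization takes out. No gene of the 6 passed at an adjusted p of 0.05, and the difference is therefore given below as a size with its interval. In these bulk samples fewer cells of a type and less RNA per cell cannot be told apart. The 6 probe sets were listed on all 7 arrays. Of them 5 passed the filter on mean level, and Chga, whose mean of 8.65 lay under the limit of 8.94, is reported from the fit without that filter.

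**Figure D1:**
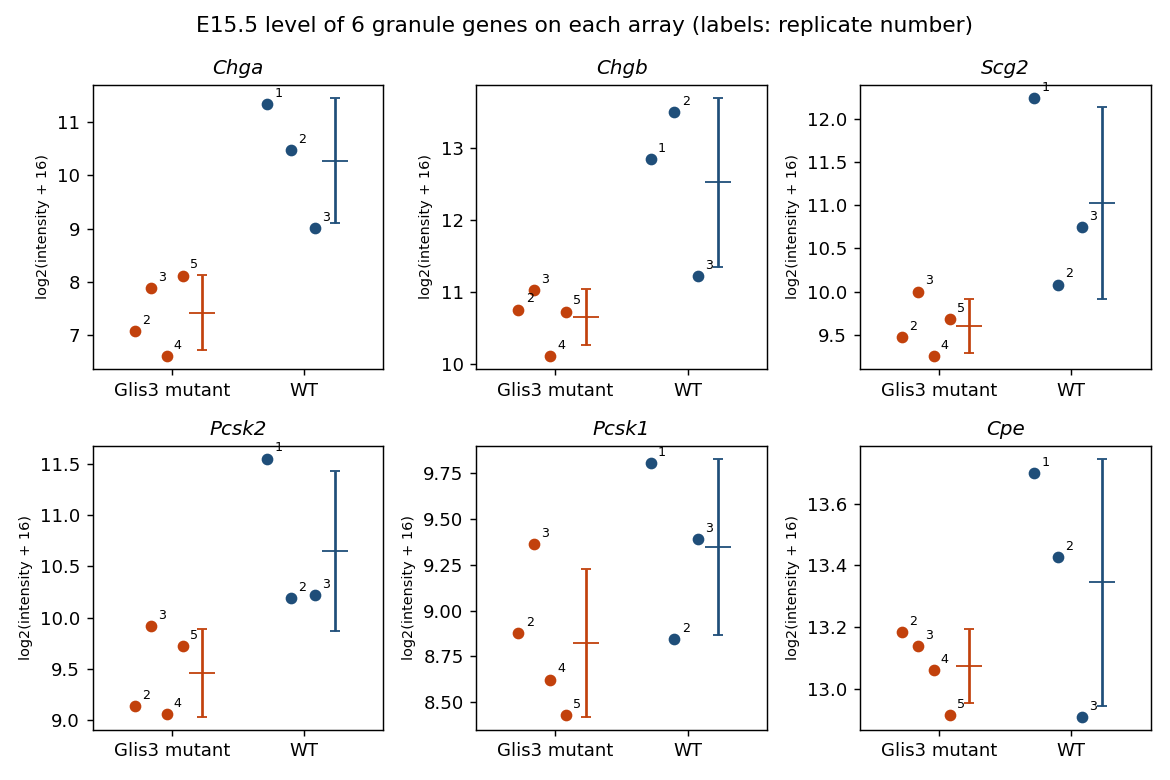
Level of 6 genes at E15.5 on each array, as log2(intensity + 16) after quantile normalization. Points are arrays with their replicate number, and the bar beside them is the mean with its SD (n = 4 Glis3 mutant, n = 3 WT). Chga, Chgb, Scg2 and Pcsk2 show no overlap between genotypes, and Pcsk1 and Cpe do.

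Chga, encoding chromogranin A, had deposited intensities of 114.0, 186.2, 86.3 and 217.5 on mutant arrays 2 to 5, against 2615, 1726 and 518.3 on WT arrays 1 to 3. The highest mutant array thus lay below the lowest WT array, WT replicate 3. On the log2 scale the level was 7.42 ± 0.70 (SD, n = 4) in mutants and 10.28 ± 1.18 (SD, n = 3) in WT. The difference was -2.86 (SE 0.53, 95% interval -4.06 to -1.66), 7.25-fold lower in mutants, with a limma adjusted p of 0.476 over 20273 probe sets. By size it was the 2nd lowest difference of those 20273.

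Chgb, encoding chromogranin B, had deposited intensities of 1714, 1937, 1014 and 1408 on mutant arrays 2 to 5, against 7357, 12279 and 2638 on WT arrays 1 to 3. WT replicate 3 was again the lowest WT array, and the genotypes did not overlap. The level was 10.66 ± 0.38 (SD, n = 4) in mutants and 12.52 ± 1.17 (SD, n = 3) in WT, a difference of -1.86 (SE 0.47, 95% interval -2.93 to -0.80) or 3.64-fold lower, with a limma adjusted p of 1.0. It was the 3rd lowest difference of 12164 probe sets tested.

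Scg2, encoding secretogranin II, the precursor of secretoneurin, had deposited intensities of 697.1, 892.3, 561.8 and 673.1 on mutant arrays 2 to 5, against 4854, 1335 and 1849 on WT arrays 1 to 3. WT replicate 1 stood well above the other WT arrays, and mutants still lay below each of them. The difference was -1.42 (SE 0.44, 95% interval -2.42 to -0.43), 2.68-fold lower in mutants, with a limma adjusted p of 1.0. Without WT replicate 1 the Scg2 difference was -0.82.

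Pcsk2, the convertase that releases glucagon from proglucagon, had deposited intensities of 548.1, 840.6, 487.2 and 695.6 on mutant arrays 2 to 5, against 3018, 1439 and 1249 on WT arrays 1 to 3. The genotypes did not overlap, and WT replicate 1 was again the highest. The level was 9.46 ± 0.43 (SD, n = 4) in mutants and 10.65 ± 0.78 (SD, n = 3) in WT. The difference was -1.19 (SE 0.36, 95% interval -2.01 to -0.38), 2.29-fold lower, with a limma adjusted p of 1.0, and it was -0.75 without WT replicate 1.

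Pcsk1, the other convertase, had deposited intensities of 454.8, 552.9, 364.0 and 274.1 on mutant arrays 2 to 5, against 904.4, 572.1 and 683.7 on WT arrays 1 to 3. These did not overlap as deposited, but after quantile normalization mutant replicate 3, at 9.36, lay above WT replicate 2, at 8.84. The difference was -0.52 (SE 0.29, 95% interval -1.17 to 0.12) with a limma adjusted p of 1.0, and it was -0.29 without WT replicate 1.

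Cpe had the smallest difference of the 6. Its deposited intensities were 9060, 9189, 8037 and 6545 on mutant arrays 2 to 5, against 13477, 11684 and 8497 on WT arrays 1 to 3. WT replicate 3 lay among the mutant arrays as deposited, and after normalization, at 12.910, it lay just below the lowest of them, mutant replicate 5 at 12.914. The difference was -0.27 (SE 0.17, 95% interval -0.65 to 0.11) with a limma adjusted p of 1.0. For Cpe it was -0.09 without WT replicate 1 and -0.49 without WT replicate 3.

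**Figure D2:**
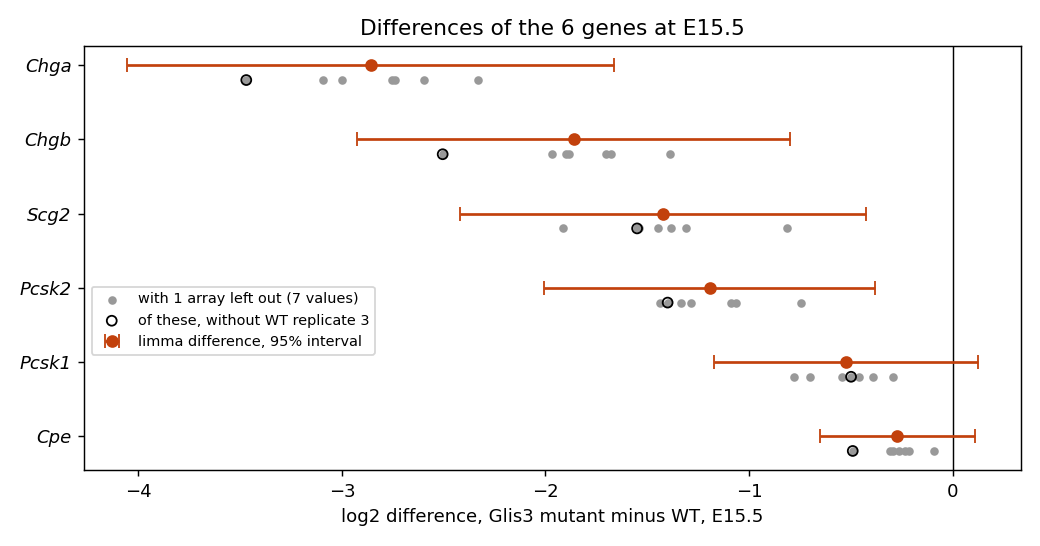
Difference between Glis3 mutant and WT at E15.5 in log2 units for 6 genes, with the limma 95% interval, and the differences with each of the 7 arrays left out in turn. The intervals of Chga, Chgb, Scg2 and Pcsk2 lie below 0, those of Pcsk1 and Cpe include it, and leaving out WT replicate 3 moves Chga and Chgb to -3.47 and -2.50.

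The genes were chosen with earlier results of these data known, so the shares below describe them and are no test of the set. Set against the table as a whole, 3 of the 5 tested genes were lower in mutants without overlap, as were 1.79% of the 12164 probe sets. The same 3 were also at least 2-fold lower, against 0.164% of probe sets, or 0.156% when both conditions are asked for. With Chga, without the filter, 4 of 6 had no overlap, against 2.34% of 20273, and these 4 were at least 2-fold lower, against 0.261%. The 5 genes had a median difference of -1.19, against -0.00 for all probe sets tested, and the 6 without the filter had -1.31 against -0.01. No probe set passed limma at an adjusted p of 0.05 (0% of 12164), while 274 had an unadjusted p under 0.05, Chgb, Scg2 and Pcsk2 among them. Those 3 of 5 compare with 1.12% of probe sets that were lower in mutants at that unadjusted level. Without the filter it was 4 of 6, against 1.63%, and limma again called 0 of 20273 (0%), with 571 under an unadjusted p of 0.05.

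Whether a call was made depended on 1 WT array. Without WT replicate 3, Chgb was called, at -2.50 with a limma adjusted p of 0.0175, where 0.21% of 12368 probe sets were. In the same samples without the filter Chga was called too, at -3.47 with a limma adjusted p of 0.0227, where 0.247% of 20613 probe sets were. Over all alternatives tried the adjusted p ranged from 0.0175 to 1.0 for Chgb and from 0.0227 to 1.0 for Chga, and neither was called in any other. The difference kept its sign in all 17 alternatives for Chgb, Scg2, Pcsk2 and Cpe, in all 16 for Chga and in 16 of 17 for Pcsk1.

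**Figure D3:**
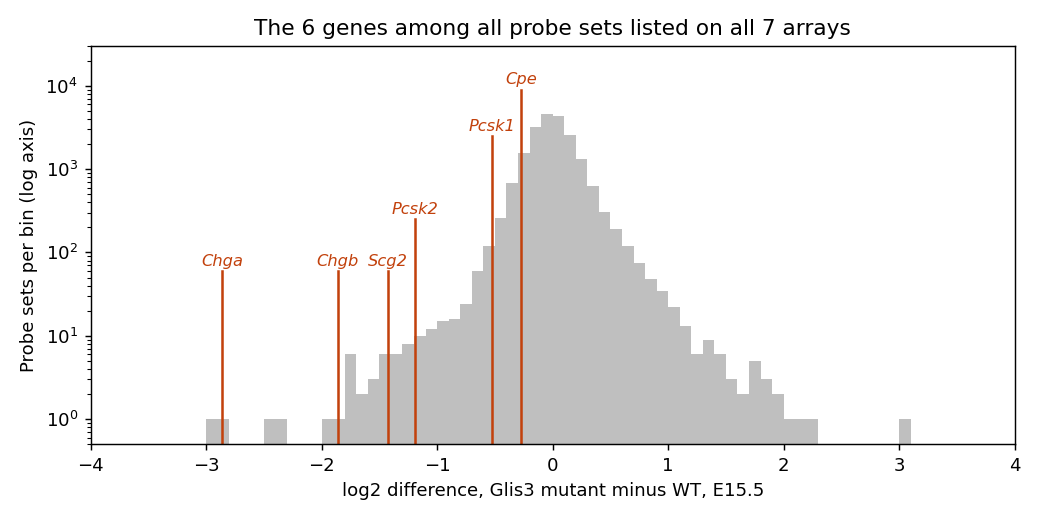
Number of probe sets (log axis) by their difference between Glis3 mutant and WT at E15.5, in bins of 0.1 log2 units, for the 20273 probe sets listed on all 7 arrays. Vertical lines mark 6 genes, of which Chga at -2.86 and Chgb at -1.86 lie in the sparse left tail and Cpe at -0.27 in the bulk.

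The genes varied more among WT arrays than among mutant arrays, as did most probe sets. The SD was larger in WT for 6 of 6 genes, where 76.6% of all probe sets tested had the larger SD in WT. Among the 5 tested genes the median SD was 0.38 log2 units in mutants and 0.78 in WT, against 0.16 and 0.27 for all probe sets. Replicates did not keep 1 order over the genes. WT replicate 1 was highest for Chga, Scg2, Pcsk2, Pcsk1 and Cpe and WT replicate 2 for Chgb, while WT replicate 3 was lowest for Chga, Chgb and Cpe. Among mutants, replicate 4 was lowest for Chga, Chgb, Scg2 and Pcsk2.

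The probe set most like the mean profile of the 6 genes over the 7 arrays was 1447669_s_at, with a Pearson r of 0.995. Its deposited intensities were 455.7, 490.6, 305.9 and 344.2 on mutant arrays, against 1754, 1206 and 678.9 on WT arrays. The next was 1460036_at, with a Pearson r of 0.981. Both correlations are descriptions over 7 arrays and hold the gap between genotypes as well as the variation within them. These probe sets were not paired with a gene name here, and the same holds for markers of islet, acinar and other cells at E15.5, so the makeup of these samples was not checked.

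The PND3 pools are labelled as pancreas, but their marker signals differ from that label. Processed signals of 11 islet markers had a median of 12.3 for mutant RNA and 11.3 for WT RNA. Of the 11, 5 did not exceed background clearly for either genotype on either array. Their summed signal was 267.2 for mutant RNA and 267.9 for WT RNA. For 8 acinar markers the median was 67.9 for mutant RNA and 64.4 for WT RNA, and the sums were 1424 for mutant RNA and 1469.9 for WT RNA. For 10 kidney markers it was 19233 for mutant RNA and 17838 for WT RNA, against 605.9 and 608.7 for all genes measured, although probes differ in how they bind. PND3 values are therefore those of these pools, and their part in any difference from E15.5 was not tested.

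At PND3, 0 of the 7 genes measured reached a 2-fold ratio with 1 sign on both arrays. Of all 20923 measured genes 0.191% did (0.158% were lower in mutants). With 1 pool per genotype there is no test at this age. Probes well above background were found for 7 of the 9 genes. Among the 7, Chgb, Scg3, Pcsk2 and Pam were lower in the mutant pool on both arrays and Chga, Scg5 and Cpe were higher, where 37.8% of all genes were lower and 30.9% higher on both. The median log2 ratio of mutant over WT was -0.14 for the 7 and -0.01 for all genes. With median centring of the arrays, under which the all-gene median was -0.12, Chga turned to -0.08 and Scg5 to -0.03.

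**Figure D4:**
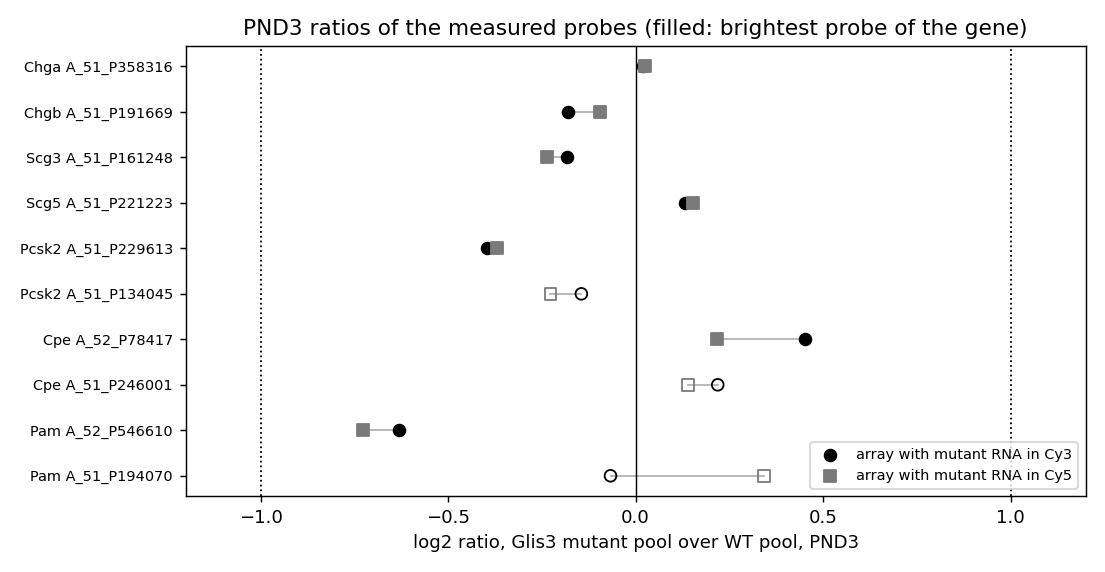
PND3 log2 ratio of the Glis3 mutant pool over the WT pool for the 10 measured probes of 7 genes, with 1 symbol per array. Dotted lines mark 2-fold, filled symbols mark the brightest probe of a gene. Pam lies lowest, at -0.63 and -0.73 with its brightest probe, while its other probe lies at -0.07 and 0.34.

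Among the granins, Chga had log2 ratios of 0.02 and 0.03 on the arrays with mutant RNA in Cy3 and in Cy5. Its scanner signals were 281.5 and 247.5 in the mutant pool, against 273.1 and 233.2 in the WT pool. Chgb had ratios of -0.18 and -0.09, with mean signals of 88.6 for mutant RNA and 102.8 for WT RNA. That Chgb probe was printed 10 times on each array, and single spots ran from -0.25 to -0.11 on the first array and from -0.19 to 0.01 on the second, which shows the spread of repeat measurements of 1 pool. Scg3, a granin that binds Chga, had ratios of -0.18 and -0.24, with mean signals of 83.5 for mutant RNA and 97.9 for WT RNA. The Scg2 probe was not well above background in either pool on either array, so Scg2 has no ratio at this age.

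Of the convertases, Pcsk2 had log2 ratios of -0.40 and -0.37 with its brightest probe, 1.30-fold lower. Signals were 545.4 and 508.8 in the mutant pool, against 746.0 and 655.3 in the WT pool. A dimmer Pcsk2 probe stood lower as well, at -0.14 and -0.23. Scg5, the escort of Pcsk2, had ratios of 0.13 and 0.15, with mean signals of 977.6 for mutant RNA and 879.8 for WT RNA. Both Pcsk1 probes were not well above background in either pool on either array.

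Cpe had ratios of 0.45 and 0.22 with its brightest probe and of 0.22 and 0.14 with the other. Signals of the brightest probe were 7834 and 6639 for mutant RNA, against 6049.9 and 5404 for WT RNA. All 4 values point the same way, yet the brightest probe's arrays lay 0.24 apart. The next widest gap among brightest probes was 0.10, for Pam. The pooled SD between arrays was 0.07 over the 7 genes, and most of it comes from Cpe. With median centring Cpe stood at 0.10.

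With the brightest probe of each gene Pam had the lowest ratio of the 7, and it had the only measured probes that point in opposite directions on an array. The probes are shown because the gene's value turns on which is read. They are 60-base probes designed to the same transcript of the chromosome 1 gene, given 5′ to 3′ as in the scanner files.
Pam A_52_P546610: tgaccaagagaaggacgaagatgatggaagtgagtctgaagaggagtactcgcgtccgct
Pam A_51_P194070: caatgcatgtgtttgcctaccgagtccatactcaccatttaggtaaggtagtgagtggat

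With probe A_52_P546610 Pam had log2 ratios of -0.63 and -0.73, 1.60-fold lower. Its signals were 885.3 and 781.9 in the mutant pool, against 1453 and 1298 in the WT pool. With probe A_51_P194070 Pam had ratios of -0.07 and 0.34, with signals of 627.5 and 706.9 in the mutant pool, against 676.4 and 531.1 in the WT pool. The gap between the probes is larger than the gap between arrays for either probe, and averaged over measured probes Pam stood at -0.27 and Pcsk2, then the lowest, at -0.28. A further Pam probe was too dim to be counted as measured.

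Side by side, the ages gave -2.86 at E15.5 and 0.02 at PND3 for Chga, -1.86 and -0.14 for Chgb, -1.19 and -0.38 for Pcsk2, and -0.27 and 0.33 for Cpe. The array type and RNA amount differ between the ages. Markers were read only at PND3, where their signals go against the label pancreas. A difference between the ages was not tested.

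Other genes of the granule pathway were read at PND3 from lists of genes with known roles. Of 21 genes of granule membrane, cargo and exocytosis, 17 were measured and 0 were 2-fold apart on both arrays, with a median log2 ratio of -0.05. The most distant were the SNARE regulator Cplx2 at -0.30, the syntaxin Stx1a at 0.27, the vesicular monoamine transporter Slc18a2 at -0.22 and the granule GTPase Rab27a at -0.19. Of 16 other peptide processing enzymes, 16 were measured and 0 were 2-fold apart, with a median of 0.04. Among them the aminopeptidase Enpep stood at -0.35, the glutaminyl cyclase Qpct at -0.32, the convertase Pcsk6 at -0.29 and the carboxypeptidase Prcp at -0.23. Of 8 islet peptide genes 5 were measured and 0 were 2-fold apart, with Ghrl (ghrelin) at 0.48, Pyy at -0.06, Iapp at -0.06 and Ins2 at -0.03.

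Markers of neurons and of the adrenal gland were also read at PND3, and their counts of 2-fold genes stand against the same 0.191% of all measured genes. Of 8 adrenal medulla markers 6 were measured and 0 were 2-fold apart, with a median log2 ratio of 0.02. Summed signals were 6341 for mutant RNA and 6269 for WT RNA, mostly from Slc18a1 (3758 and 3709) and Ddc (2050 and 1982). The median signal of the 8 was 54.1 for mutant RNA and 61.6 for WT RNA. Of 9 neuron markers 9 were measured and 0 were 2-fold apart, with a median log2 ratio of -0.02. Summed signals were 9220.5 for mutant RNA and 9917 for WT RNA, mostly from Uchl1 (8506 and 9250). The median signal of the 9 was 51.8 for mutant RNA and 46.7 for WT RNA. Ratios at such dim signals are shrunk by the same offset, so these counts of 0 say little for dim markers. For 5 adrenal cortex markers the median log2 ratio was -0.01, with single genes from -0.59 (Hsd3b1) to 0.26 (Nr5a1). Their part in the ratios of the granule genes was not tested.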

How the data were processed

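Samples were grouped by genotype and age as labelled. For E15.5 the authors deposited probe set intensities on a linear scale, made by steps not stated in the labels. Between 52.6% and 56.4% of cells per array hold a value, and 20273 of 45037 probe sets have one on each of the 7 arrays. Scanner files of PND3 hold, per the file headers, spot, background and processed intensities, other columns with quality flags, and log10 of the ratio of Cy5 over Cy3, from Feature Extraction 9.1.3.1 (8.1 in the submitters' processing notes). The log2 ratios in the authors' value table run as mutant over WT, since they correlate with the scanner's at r = 0.9996 and 0.9997 (median 0).

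R 4.3.3, limma 3.58.1, Python 3.11.15 and matplotlib 3.10.9 were used. At E15.5, after quantile normalization and log2(value + 16), a filter at the 40th percentile of average level kept 12164 probe sets for limma (lmFit, eBayes with a trend, Benjamini-Hochberg). The fit was also run on simulated data with independent noise and the same spread in both genotypes. That setting is unlike these data, so it does not show how the fit performs here. PND3 spots were corrected by normexp (offset 50, which shrinks dim ratios) and loess with control spots at weight 0, and signs were turned by dye, without 18 and 26 outlier spots. The brightest probe well above background stood for a gene. RefSeq (GRCm38.p6) gave promoters, and symbols for 22951 of 41174 probes. Because separate embryos or litters are not stated, p-values describe these samples' own spread, possibly a technical one, and 7 arrays limit the precision. Alternatives changed the normalization, background, filter, pseudocount, probe rule, variance model, array weights, block and arrays. All 9 genes were named at PND3 and 6 at E15.5, with up to 4 of each further pathway list by largest ratio and the 2 most similar probe sets. Genes and lists were chosen with earlier results of these data known.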

Additional observations from a re-analysis of the deposited data

Results flagged for a closer look

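Chga drew attention because its arrays lay on different sides of 0 at the ages: each of 4 mutant arrays lay below every WT array at E15.5 (difference -2.86), while both PND3 arrays gave a ratio just above 0 (mean 0.023). That ratio is smaller than the pooled SD between arrays of 0.07, which is a technical spread that comes mostly from Cpe. With 1 pool per genotype a PND3 difference of Chga was not tested. The PND3 ratio turned to -0.08 with median centring. Marker signals of the PND3 pools go against the label pancreas. Median signals in mutant RNA were 12.3 for islet markers and 19233 for kidney markers. In WT RNA they were 11.3 and 17838. The difference between the ages was not tested.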

How the results depend on the processing

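At E15.5 the count of called genes among the members was 0 under every alternative except without WT replicate 3, where it was 1 (Chgb), so leaving out each array gave 0 to 1. For all probe sets it was 0 in the main setting, 5 without normalization between arrays (which moved the median of all probe sets to -0.25), 4 with the replicate block as a factor, 1 with the replicate block as a random effect, an alternative chosen after seeing the data, and 0 to 26 when each array was left out, with 26 without WT replicate 3. The cause was not tested. The replicate block as a factor rests on numbers 2 and 3, the only ones that both genotypes share, and drops the other arrays. With it Pcsk1 was 0.0035, a change of sign, Chgb was -1.47 and Scg2 was -0.68. Samples sharing a number had deviations that correlated at 0.06 and 0.54, and with only 2 shared numbers a pairing is not shown. The fit with the random effect estimated a correlation of 0.48 within numbers. An unadjusted limma p under 0.05 was found for 881 probe sets in that fit and 1145 with the factor, against 274 in the main fit. The main fit does not use the numbers, so its p-values would not hold if they mark a batch. Of 101 differences recomputed for the 6 genes, 98 kept their direction and their side of the threshold. At PND3 no member was 2-fold apart under any of 9 alternatives, while the count for all genes was 40 in the main setting and 176 with the scanner's processed ratios or the value table, 70 with an offset of 16, 53 with median centring, 34 to 40 with other filters and probe rules, and 48 and 59 with 1 array. Of 63 PND3 ratios recomputed, 10 moved by more than the SD between arrays, 5 of them with median centring. Dim signals limit the PND3 values of Scg2 and Pcsk1.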
